A study of Mus musculus with 10 samples.

Results

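The CC chemokines described here are 10 genes of one family of small secreted proteins, Ccl2, Ccl3, Ccl4, Ccl5, Ccl6, Ccl7, Ccl8, Ccl9, Ccl20 and Ccl28. They were chosen by name, with earlier results of these data known. Their array probes were found by matching the accession printed with each gene probe to RefSeq. All 10 were represented on the array by 11 probes, and all 10 were above background on all 10 arrays, so none was lost among the 14478 genes tested.

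CC chemokines carry adjacent cysteines near the amino terminus and act through G protein-coupled receptors on leukocytes, which migrate towards higher concentrations of the ligand. Ccl2 and Ccl7 draw monocytes out of blood through Ccr2, Ccl3, Ccl4 and Ccl5 draw monocytes and T cells, and Ccl20 acts on Ccr6. In the colon, Ccl20 and Ccl28 are made by the epithelium itself, and Ccl28 is known for drawing IgA-secreting plasma cells that carry Ccr10 into the mucosa.

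RNA came from 7 colon tumors, labelled as tubular adenomas with a dominant active Ctnnb1 mutation, and from 3 samples of adjacent normal colon epithelium with wild-type Ctnnb1. All were dissected from 3 CYP1A-humanized mice, with no strain stated in the labels. Mouse 41, a male, and mouse 42, a female, each gave 3 tumors and 1 normal sample, and mouse 43, a male, gave 1 tumor and 1 normal sample. The treatment was common to all animals and therefore to tumors and normals alike. On AIN93M diet, they received PhIP, an amine formed when meat is cooked, in 2 gavage doses of 100 mg/kg at 6 weeks of age, and then 1.5% dextran sulfate sodium (DSS), a colon irritant, in drinking water for a week. After 8 more weeks without treatment they were sampled at 16 weeks of age. No untreated animal was included, so the normals are DSS-exposed epithelium, and the tumors are not independent animals.

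Each sample was read on one single-colour array, with between 57.7% and 66.7% of gene probes above background. Values are log2 normalized intensities, and a difference of 1 is a doubling. They are compared between samples for a given probe and never between probes. Of the arrays, 4 tumors were marked by name as re-dipped or rescanned, here called the later scan session, and no normal was. The other arrays are called the earlier session. Both terms stand for this mark in the names and not for scan times, which were not used. Re-dipping and rescanning are not told apart. Keratins of squamous epithelium stood high on 2 arrays, the tumor of mouse 43 and the normal of mouse 42. The summed level of 9 squamous genes was 28685 on that tumor array and 16984 on that normal array, and between 1757 and 2741 on the other 8 arrays. Markers of colon epithelium were above background on all 10 arrays for all 9 genes tested. These were whole dissected tissues, in which fewer cells of a type and less RNA per cell cannot be told apart.

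Promoters are shown for the members that were called in the comparison of tumors and normals, as far as the RefSeq table (GRCm38.p6) holds them, and for Ccl20, an epithelial member with a kappaB match. The table holds 6 of the 10 members, Ccl3, Ccl6, Ccl8, Ccl9, Ccl20 and Ccl28, and lacks Ccl2, Ccl4, Ccl5 and Ccl7. Each line gives the 250 bases before the gene's start, 5′ to 3′ on the gene's own strand. Capitals mark a TATAAA box or a match to the kappaB consensus, the site read by NF-kappaB, both searched on both strands.
Ccl3, chr11:83649379-83649628, minus strand: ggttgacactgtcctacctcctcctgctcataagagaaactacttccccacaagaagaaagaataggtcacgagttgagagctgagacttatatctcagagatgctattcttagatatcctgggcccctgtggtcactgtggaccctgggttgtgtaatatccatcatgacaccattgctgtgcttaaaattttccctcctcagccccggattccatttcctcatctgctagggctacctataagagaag
Ccl8, chr11:82114935-82115184, plus strand: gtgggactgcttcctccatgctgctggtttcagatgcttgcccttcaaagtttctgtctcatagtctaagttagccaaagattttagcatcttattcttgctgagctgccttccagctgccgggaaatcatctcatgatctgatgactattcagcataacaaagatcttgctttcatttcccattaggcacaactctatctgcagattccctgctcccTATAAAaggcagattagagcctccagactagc
Ccl6, chr11:83593088-83593337, minus strand: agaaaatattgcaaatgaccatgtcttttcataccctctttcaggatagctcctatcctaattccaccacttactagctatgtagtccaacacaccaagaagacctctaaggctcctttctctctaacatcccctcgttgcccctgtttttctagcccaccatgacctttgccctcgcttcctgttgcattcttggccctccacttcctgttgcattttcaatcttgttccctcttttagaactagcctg
Ccl28, chr13:119623569-119623818, plus strand: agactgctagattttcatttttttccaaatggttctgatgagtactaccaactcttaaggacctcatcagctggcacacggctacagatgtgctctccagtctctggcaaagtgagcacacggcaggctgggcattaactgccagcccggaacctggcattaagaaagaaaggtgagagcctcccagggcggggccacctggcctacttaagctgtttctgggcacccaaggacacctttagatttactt
Ccl20, chr1:83116516-83116765, plus strand: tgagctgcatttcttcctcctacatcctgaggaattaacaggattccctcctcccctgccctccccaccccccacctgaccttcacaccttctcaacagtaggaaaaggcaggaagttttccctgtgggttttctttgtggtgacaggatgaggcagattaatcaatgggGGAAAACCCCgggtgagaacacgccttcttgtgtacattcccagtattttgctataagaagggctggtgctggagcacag
A TATAAA box was present in 2 of the 6 promoters, against 12.3% of 32536 promoters in the table, and in Ccl8 it lay 27 bases before the start. A kappaB match was also present in 2, in Ccl20 at 71 bases before the start and in Ccl9 at 26 bases, against 3.92% of all promoters. The promoters of Ccl3, Ccl6 and Ccl28 held neither motif in this window. These are matches of letters and not measured binding.

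The series asks which genes are expressed differently in the tumors. Tumors and normals were compared over all genes with limma, with the mouse as a block, and called at a Benjamini-Hochberg adjusted p under 0.05. Of the 10 members, 5 rose in tumors (Ccl2, Ccl7, Ccl8, Ccl3 and Ccl4), 2 fell (Ccl6 and Ccl28) and 3 did not pass the test (Ccl5, Ccl9 and Ccl20). Over all genes tested, 25.9% were called higher and 23.7% lower, so that 7 of 10 members were called against a background of 49.6%. The values of tumors and normals did not overlap for 6 of the 10 members, against 41.5% of all genes. In 4 of these all tumors lay above all normals (21.4% of all genes) and in 2 all lay below (20% of all genes). The median difference was 0.11 over the members and 0.0087 over all genes, with members on both sides. Log2 differences of individual members ranged from 1.80 for Ccl2 to -2.07 for Ccl28.

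**Figure D1:**
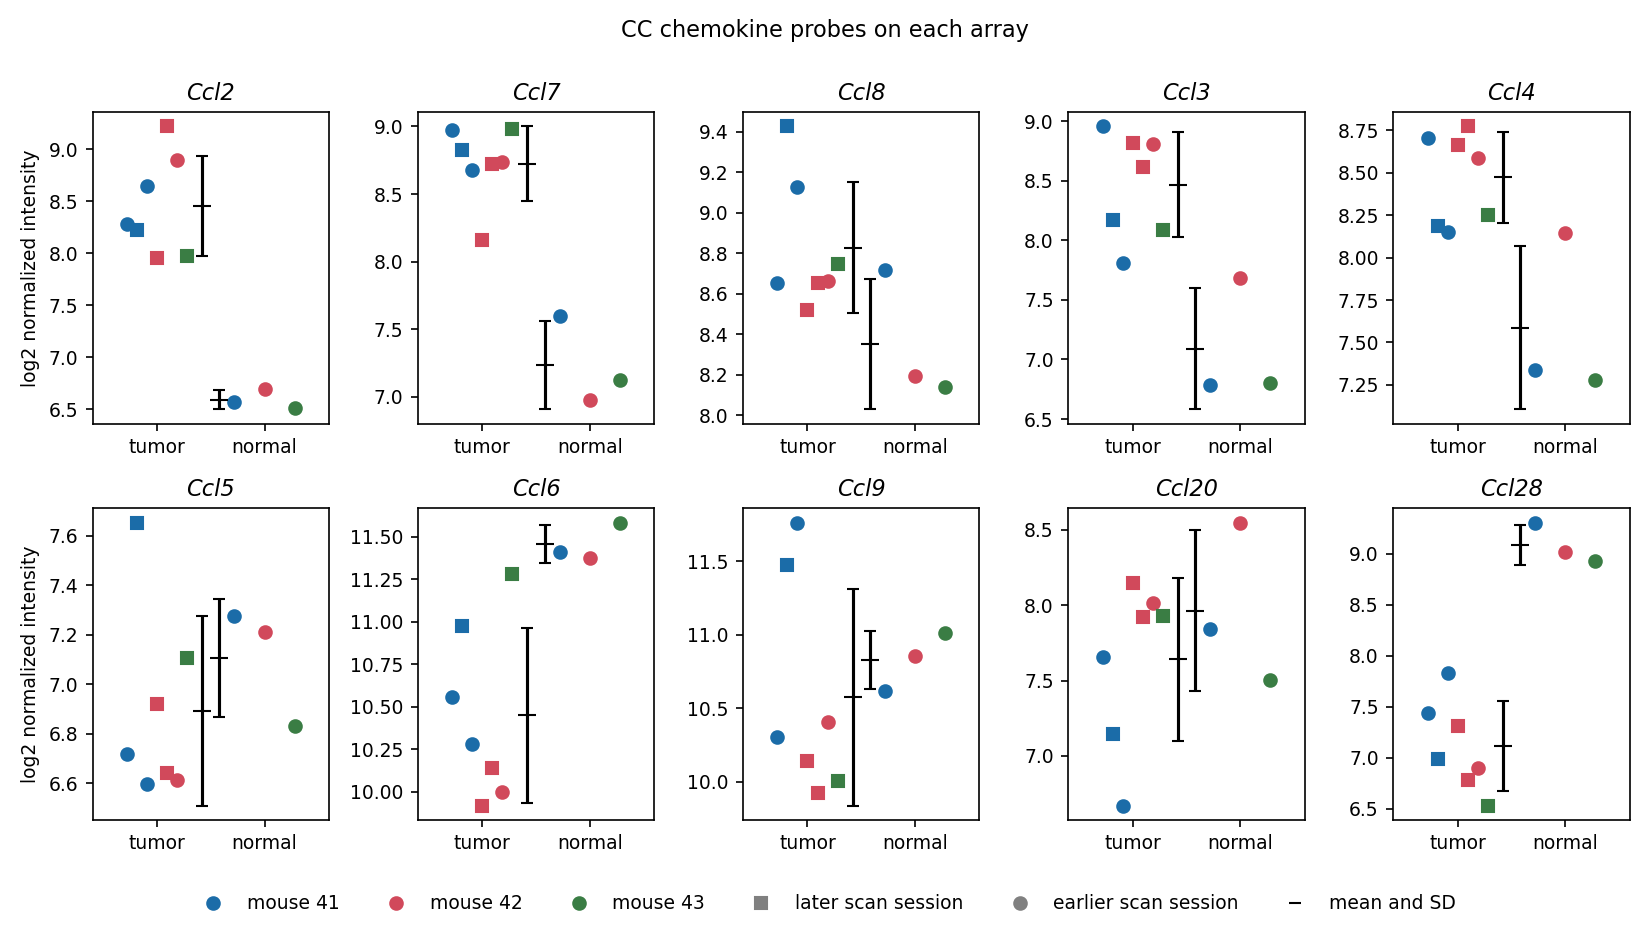
Log2 normalized intensity of each CC chemokine on every array, with tumors left of normals in each panel and a separate vertical scale per gene. Points are single arrays, coloured by mouse, squares belong to the later scan session, and bars are the mean and SD. For Ccl2 the tumors lie between 7.95 and 9.22, all above the normals, and for Ccl28 between 6.53 and 7.83, all below the normals.

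Ccl2, the principal attractant of inflammatory monocytes, showed the widest gap among the members that rose. Its log2 intensity in tumors was 7.95 at the lowest, 8.28 at the median and 9.22 at the highest, against 6.56, 6.69 and 6.51 in the normals of mice 41, 42 and 43. No tumor came near the normals. The normals lay close together, but near the lowest signal above background on their arrays (6.362, 6.215 and 6.125), where differences are compressed. The mean was 8.46 ± 0.48 in tumors and 6.59 ± 0.09 in normals (SD, n = 7 and 3), a 3.48-fold higher level in tumors (log2 difference 1.80 ± 0.25, SE, 95% interval 1.24 to 2.36, limma adjusted p = 0.0004). The authors' deposited table gave a larger difference for Ccl2, 3.02, and a normexp offset of 16 gave 2.26. Tumors of mouse 42 differed most among themselves, with 7.95 in tumor 1 and 9.22 in tumor 2.

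Ccl7, which shares the receptor Ccr2 with Ccl2 and lies next to it on chromosome 11, rose 2.85-fold. Tumors had values of 8.16, 8.73 and 8.98 (lowest, median and highest), and normals 7.60, 6.97 and 7.12 in mice 41, 42 and 43. The groups did not overlap, and every tumor exceeded its own normal by between 1.08 and 1.86. The log2 difference was 1.51 ± 0.16 (SE, 95% interval 1.16 to 1.86, limma adjusted p = 9.8e-05), and 2.15 in the authors' deposited table. Tumor 1 of mouse 42 was the lowest tumor for Ccl7 as it was for Ccl2.

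Ccl8, a related chemokine that in the mouse signals through Ccr8, rose by less, 1.36-fold. Tumors had 8.52, 8.67 and 9.43, and normals 8.72, 8.19 and 8.14 in mice 41, 42 and 43. The groups overlapped, since the normal of mouse 41 exceeded 4 tumors, and 6 of 7 tumors were above their own normal. The difference of 0.44 ± 0.15 (SE, 95% interval 0.11 to 0.78) had a limma adjusted p of 0.0334. This call was lost in 16 of 29 alternatives, among them the fit without the replicate block for the mouse (0.48, adjusted p = 0.067). It was also lost without any 1 of the 3 normals, without tumor 2 or tumor 3 of mouse 42, or without the tumor of mouse 43 (0.39 to 0.50, adjusted p from 0.0554 to 0.109). Leaving out the normal, the tumor or the whole of mouse 43 gives the same blocked fit, which is counted each time.

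Ccl3 and Ccl4 encode the macrophage inflammatory proteins, which attract monocytes and T cells. Ccl3 had tumor values of 7.81, 8.61 and 8.96, against 6.79, 7.68 and 6.80 in the normals of mice 41, 42 and 43. The lowest tumor stood just above the normal of mouse 42, and the other normals were well below. Ccl3 rose 2.45-fold (difference 1.29 ± 0.22, SE, 95% interval 0.80 to 1.78, limma adjusted p = 0.0011), and the authors' deposited table gave 2.02. Ccl4 had tumor values of 8.15, 8.59 and 8.77, against 7.34, 8.14 and 7.28 in those normals. The lowest tumor, of mouse 41, and the normal of mouse 42 were nearly level, so the groups were apart by less than 0.01, while each tumor exceeded its own normal by at least 0.44. Ccl4 rose 1.76-fold (0.82 ± 0.14, SE, 95% interval 0.50 to 1.14, limma adjusted p = 0.0014). A second Ccl4 probe, above background on 8 arrays, gave 0.49 with a limma adjusted p of 0.0096 over all probes. The annotated spans of Ccl3 and Ccl4 share 755 bases, and the labels do not say where their probes lie. Within the earlier scan session neither passed, at a difference of 1.39 for Ccl3 (adjusted p = 0.0631) and 0.81 for Ccl4 (adjusted p = 0.0767). From spot medians Ccl4 had 0.51 (adjusted p = 0.133).

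Ccl5, an attractant of T cells and monocytes and a product of activated T cells among others, did not pass the test. Tumors had values of 6.60, 6.72 and 7.65, and normals 7.27, 7.21 and 6.83 in mice 41, 42 and 43. The lower tumor values lay near the lowest signal above background on the tumor arrays (6.083 to 6.244), where differences are compressed. The groups overlapped, and 2 of 7 tumors lay above their own normal. The difference was -0.22 ± 0.23 (SE, 95% interval -0.74 to 0.30, limma adjusted p = 0.453), which spans both directions. In the earlier scan session it was -0.61 with an adjusted p of 0.0257.

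Ccl6 and Ccl9 are chemokines of rodents that act on Ccr1 and are made by myeloid cells. Ccl6 had tumor values of 9.92, 10.28 and 11.28, and normals 11.41, 11.38 and 11.58 in mice 41, 42 and 43. Every tumor was below every normal, and tumors of mouse 42 were the lowest. Ccl6 fell 1.85-fold (difference -0.89 ± 0.19, SE, 95% interval -1.32 to -0.45, limma adjusted p = 0.0043). The tumor of mouse 43 was only 0.31 below its own normal. Without mouse 42 the difference was -0.60 and the adjusted p 0.0974.

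Ccl9 had the widest spread between animals among the members. Tumors 1, 2 and 3 of mouse 41 had 10.30, 11.48 and 11.76, against 10.62 in their normal. In mouse 42 the tumors had 10.14, 9.93 and 10.41, against 10.86 in the normal. The tumor of mouse 43 was 1.01 below its normal, which had 11.01. Thus 2 tumors of mouse 41 stood above all other samples, and all tumors of the other mice stood below all normals. Over all arrays the difference was -0.30 ± 0.35 (SE, 95% interval -1.10 to 0.50, limma adjusted p = 0.503). Without mouse 41 it was -0.82 (adjusted p = 0.0083). The effect in mouse 42 minus that in mouse 41 was -1.26 (95% interval -2.90 to 0.38, limma adjusted p = 0.743), so a difference between these animals was not shown.

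**Figure D2:**
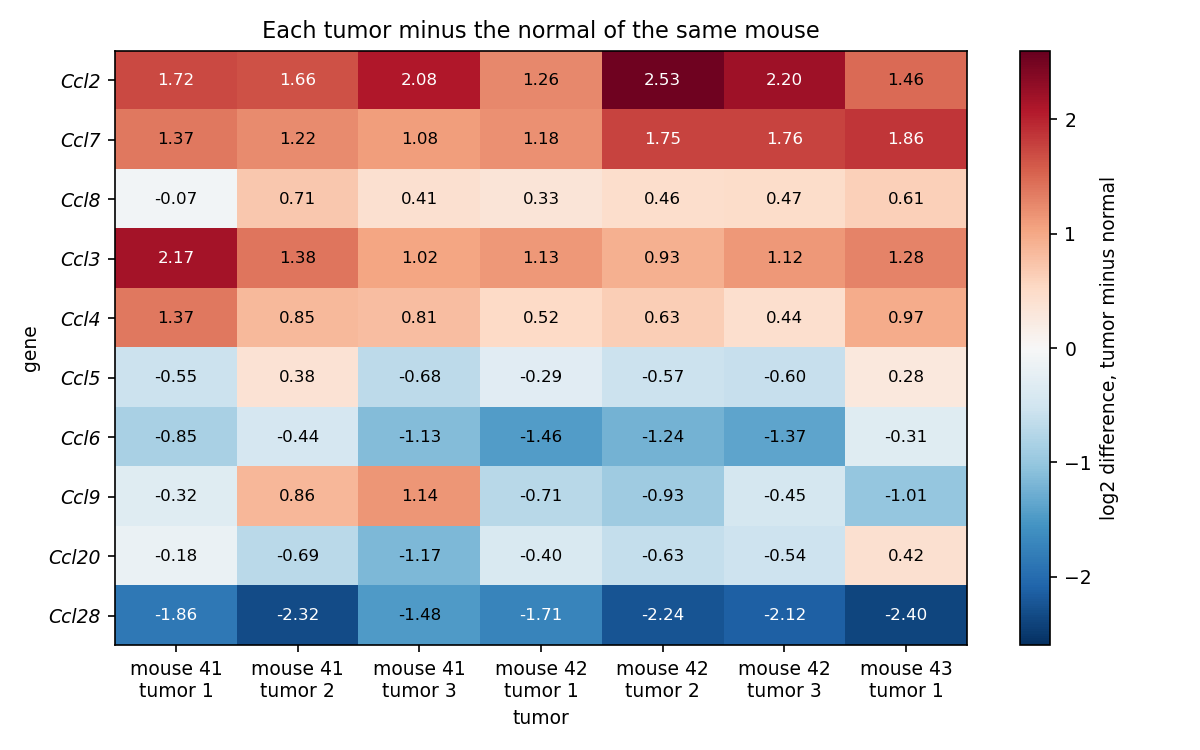
Log2 difference of each of the 7 tumors from the normal sample of the same mouse, one row per CC chemokine and one column per tumor, red for higher and blue for lower in the tumor. Ccl2, Ccl7, Ccl3 and Ccl4 are positive in every column, Ccl6 and Ccl28 are negative in every column, and Ccl9 is positive in tumors 2 and 3 of mouse 41 alone.

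Ccl28 showed the largest difference among the CC ligands and receptors tested, and it was a fall. Its log2 intensity in tumors was 6.53 at the lowest, 6.98 at the median and 7.83 at the highest, against 9.31, 9.02 and 8.93 in the normals of mice 41, 42 and 43. The groups were far apart, and the highest tumor, tumor 3 of mouse 41, was still 1.48 below its own normal. Means were 7.11 ± 0.44 in tumors and 9.08 ± 0.20 in normals (SD, n = 7 and 3). Ccl28 fell 4.19-fold (difference -2.07 ± 0.19, SE, 95% interval -2.49 to -1.64, limma adjusted p = 5.7e-05). It was -3.07 in the authors' deposited table and -2.44 with a normexp offset of 16. The mean difference within a mouse was -1.89 in mouse 41, -2.02 in mouse 42 and -2.40 in mouse 43.

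Ccl20, the ligand of Ccr6 and the other epithelial member, did not pass. Tumors had values of 6.67, 7.92 and 8.15, and normals 7.84, 8.55 and 7.51 in mice 41, 42 and 43. The groups overlapped, and 1 of 7 tumors, that of mouse 43, lay above its own normal. The difference was -0.35 ± 0.23 (SE, 95% interval -0.87 to 0.18, limma adjusted p = 0.244).

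Between mouse 42 and mouse 41, limma called a difference in the tumor minus normal effect for 0 of the 10 members, and 0 had an unadjusted p under 0.05. Over all genes 0.401% were called, and 1034 had an unadjusted p under 0.05. Each of these mice has 1 normal sample.

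Of the members, 8 lie on chromosome 11, Ccl20 on chromosome 1 and Ccl28 on chromosome 13. Along chromosome 11 the coding genes Ccl5, Ccl9, Ccl6, Ccl3 and Ccl4 follow one another without another coding gene between them. Neighbours in this row moved in opposite directions, with Ccl6 1.85-fold lower and Ccl3 2.45-fold higher in tumors. Ccl2 and Ccl7, also neighbours, both rose.

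Other ligands of the family give the setting. Of 14 further CC ligands listed, 11 were tested, and 5 rose, 1 fell and 5 did not pass, with a median log2 difference of 0.24. Over all genes tested, 49.6% were called in either direction, so these ligands were called about as often as genes at large. Ccl11, an eotaxin that draws eosinophils through Ccr3, rose 2.38-fold (1.25 ± 0.30, SE, limma adjusted p = 0.0069), with tumors from 8.07 to 10.29 and normals of 8.29, 7.50 and 7.59. Ccl12, a mouse ligand of Ccr2, rose 2.14-fold (1.10 ± 0.19, adjusted p = 0.0015), with tumors from 7.60 to 8.56 and normals of 7.40, 6.56 and 7.10. Ccl17, a ligand of Ccr4 on T cells, rose 2.41-fold (1.27 ± 0.37, adjusted p = 0.0188), and tumor 2 of mouse 41 had 10.02 where the other tumors lay between 7.59 and 8.54. Ccl24, another eotaxin, rose 1.43-fold (adjusted p = 0.0211) and Ccl27a, a ligand of Ccr10, 1.34-fold (adjusted p = 0.0094). For Ccl24 only 2 of 3 normals were above background, and their mean of 6.37 lay near the lowest such signal, where differences are compressed. Without the normal of mouse 42 the calls were lost for Ccl11 (1.05, adjusted p = 0.0626), Ccl17 (1.35, 0.0655), Ccl24 (0.60, 0.0514) and Ccl27a (0.39, 0.0613). Ccl17 also lost it when the mouse 41 normal was left out (0.97, adjusted p = 0.126), and Ccl24 without either sample of mouse 43 (0.30, adjusted p = 0.0619).

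Ccl19, which guides T cells and dendritic cells through Ccr7, fell (difference -0.43, adjusted p = 0.0264), but was above background in only 1 tumor and 2 normals. Without the normal of mouse 41 it had -0.26 (adjusted p = 0.208), and without either sample of mouse 43 -0.40 (adjusted p = 0.0807). Ccl22, a ligand of Ccr4, had a difference of -0.17, and Ccl25, the ligand of Ccr9, one of -0.25 (adjusted p = 0.155 and 0.0708). Ccl25 passed without tumor 2 of mouse 42 (-0.29, adjusted p = 0.028). The near-identical copies Ccl21a, Ccl21b and Ccl21c, whose probes may share targets, had 0.14, 0.13 and 0.24 (adjusted p = 0.627, 0.663 and 0.386). Ccl1 was on the array and too dim to be tested. From spot medians none of these 11 ligands passed. Ccl17 (1.47), Ccl27a (0.45) and Ccl24 (0.40) then had differences of about the size given, whereas Ccl11 (0.19, adjusted p = 0.368) and Ccl12 (0.27, adjusted p = 0.170) had far smaller ones. In the authors' deposited table Ccl11 had 0.32 (adjusted p = 0.478) and Ccl12 0.63 (adjusted p = 0.142), while Ccl17 had 2.08 and Ccl24 1.09 and both passed.

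**Figure D3:**
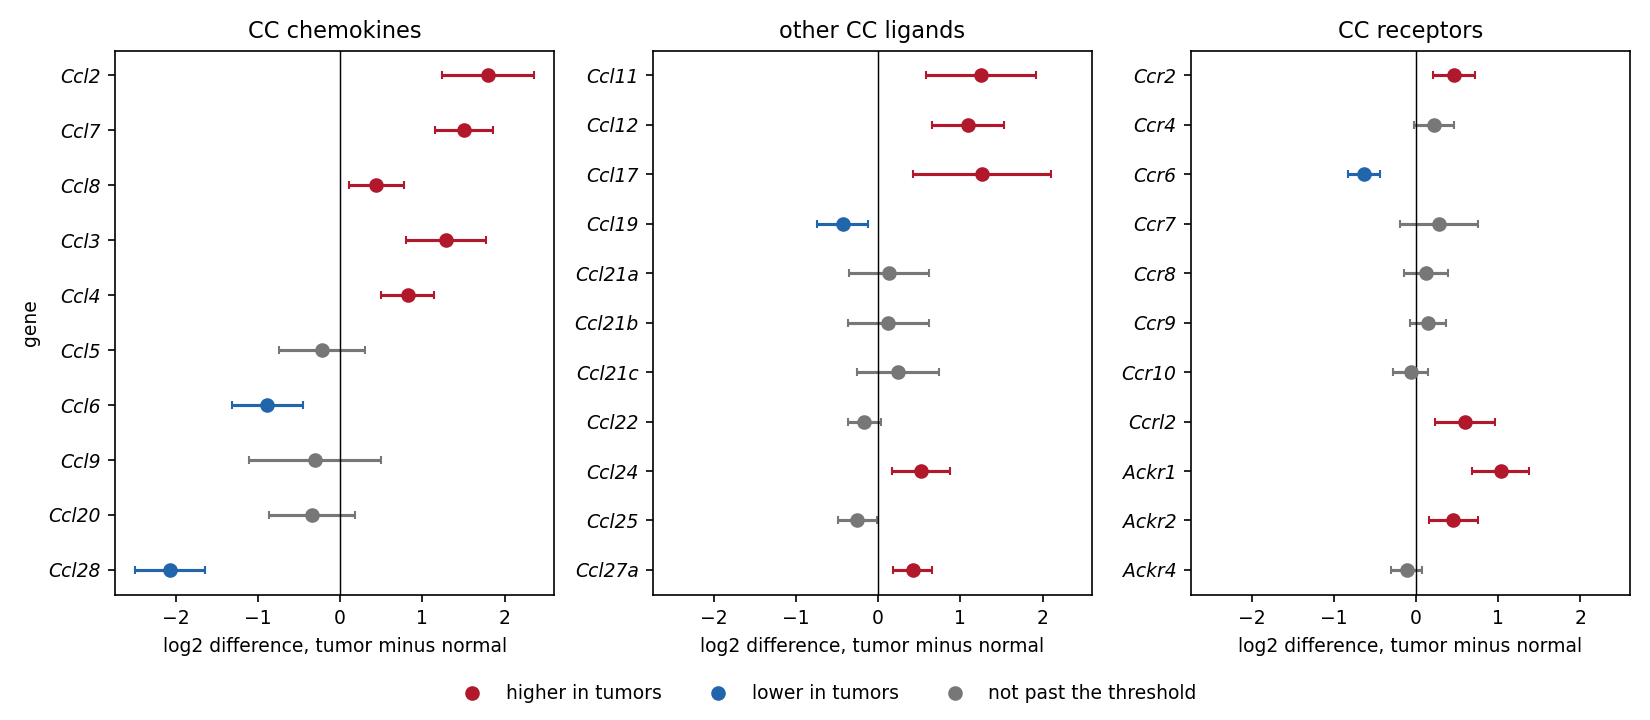
Log2 difference of tumor minus normal with its 95% interval (limma, 7 tumors and 3 normals, mouse as a block) for the 10 CC chemokines, 11 other CC ligands and 11 of the CC receptors tested, where red is higher in tumors, blue lower and grey not past the threshold. Ccl2 at 1.80 and Ccl7 at 1.51 lie farthest to the right, and Ccl28 at -2.07 lies farthest to the left.

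Receptors were read from the same arrays. Of 16 listed, 12 were tested, and 5 rose, 1 fell and 6 did not pass, with a median difference of 0.25. The share called was about that over all genes, 49.6%. Ccr2, the receptor of Ccl2 and Ccl7, was above background in 6 of 7 tumors and not well above background in any normal. Ccr2 therefore entered the test through the tumors alone, and its call, counted among the 5 that rose, carries that limit. The level was at least 1.22-fold higher in tumors, a bound taken against the lowest signal above background on each normal array. The fit to the measured values gave a log2 difference of 0.46 (limma adjusted p = 0.0083). Measured means of Ccr2 were 6.52 in tumors and 6.01 in normals. The Ccr2 call was lost when the normal of mouse 41 (0.42, adjusted p = 0.0513) or that of mouse 42 (0.44, adjusted p = 0.0546) was left out.

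Ccr6, the receptor of Ccl20 on B cells and dendritic cells among others, fell 1.55-fold (-0.63 ± 0.09, adjusted p = 0.0004), with tumors from 6.97 to 7.32 and normals of 7.69, 7.73 and 7.68. Ccr10, the receptor of Ccl28, had a difference of -0.07 ± 0.10 (SE, adjusted p = 0.60), and was above background in 3 of 7 tumors and 1 of 3 normals, so little could be measured. The atypical receptors bind chemokines without the usual signalling. Of these, Ackr1, found on venules, rose 2.04-fold (1.03 ± 0.15, adjusted p = 0.0006), and Ackr2, a scavenger of inflammatory CC chemokines, rose 1.37-fold (0.46 ± 0.13, adjusted p = 0.0166). For Ackr2 only 2 of 3 normals were above background. Ackr4 had -0.11 (adjusted p = 0.284). Ccrl2, which binds chemerin, rose 1.51-fold (adjusted p = 0.0135), a call lost without the normal of mouse 42 (0.49, adjusted p = 0.103). Without either sample of mouse 43 Ackr2 had 0.28 (adjusted p = 0.0455). Differences were 0.22 for Ccr4 (adjusted p = 0.126) and 0.29 for Ccr7 (adjusted p = 0.287). Ccr8 and Ccr9 did not pass, were each above background in 4 of 7 tumors and were not well above background in any normal, so their size is not given. From spot medians Ccrl2 had 0.25 (adjusted p = 0.235) and Ackr1 0.77 (adjusted p = 0.0544), and Ackr2 had 0.95 in the authors' deposited table. Ccr1, the receptor of Ccl6 and Ccl9, was too dim to be tested, as were Ccr1l1 and Ccr3.

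Markers of cells that make or answer these ligands moved in the same arrays. Counts for these lists, here and below, stand beside 25.9% of all genes called higher and 23.7% called lower. Of 9 macrophage and monocyte genes 7 rose and none fell, and their summed level was between 25126 and 35106 in tumors and between 15350 and 18606 in normals. Lyz2 rose 3.79-fold, C1qc 3.94-fold and C1qb 3.53-fold. Of 6 neutrophil genes 5 rose, among them S100a8 (5.64-fold) and Csf3r (2.59-fold). The other went the opposite way and did not pass (-0.55, limma adjusted p = 0.12). A gene counted among the 5 was above background in 6 of 7 tumors and not in any normal, so it entered the test through the tumors alone. With genes above background on all 10 arrays, 3 neutrophil genes were called higher. The list's summed levels, carried mostly by its brightest genes, were 8178 to 17954 in tumors and 2337 to 6411 in normals. Cxcr2 also rose (log2 difference 1.19), but was above background in 1 of 3 normals, and from spot medians it had 0.47. Of 8 fibroblast genes all 8 rose, Fn1 by 5.16-fold, Dcn by 3.67-fold and Pdgfra by 3.31-fold, with sums of 19422 to 44584 in tumors and 7739 to 9889 in normals. Of 7 endothelial genes 6 rose, among them Vwf (2.13-fold), Eng (2.03-fold) and Cdh5 (1.77-fold), with sums of 1692 to 2503 in tumors and 1026 to 1489 in normals. From spot medians fewer of these genes passed, 5 macrophage and monocyte, 4 neutrophil, 4 fibroblast and 1 endothelial gene, and the counts were 5, 4, 7 and 2 in the authors' deposited table. From spot medians C1qb had 1.19, Csf3r 0.89, Vwf 0.37 (adjusted p = 0.113), Eng 0.61 (adjusted p = 0.0631) and Cdh5 0.33 (adjusted p = 0.0552). These lists move with Ccl2, Ccl7, Ccl3 and Ccl4, and their part in those differences was not tested.

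Lymphoid and dendritic lists were read in the same way. Of 7 T and NK cell genes only Zap70 rose (3.69-fold, log2 difference 1.88). It had 0.60 from spot medians and 0.93 in the authors' deposited table. Cd3d had a difference of 0.31 (adjusted p = 0.240) and Foxp3 0.23 (adjusted p = 0.0659). The list's sums were 3732 to 5046 in tumors and 3468 to 3527 in normals. A sum weighs bright probes most, and the gap between these sums rests on Zap70. The brightest gene of the list had a difference of -0.05 (adjusted p = 0.714). Of 6 B and plasma cell genes Cd79a fell 1.85-fold and Cd79b 2.48-fold and Sdc1, which epithelium also expresses, rose 1.66-fold, with sums of 3446 to 11370 in tumors and 5448 to 8269 in normals. The other 3 did not pass, and those of plasma cells among them had differences of -0.40 and -0.21 (adjusted p = 0.216 and 0.513). Of 4 dendritic cell genes Itgax rose 2.34-fold and Zbtb46 1.38-fold, Siglech had -0.14 (adjusted p = 0.177), and sums were 779 to 1159 in tumors and 518 to 625 in normals. The Zbtb46 call was lost when the mouse 42 normal was left out (0.32, adjusted p = 0.0922), and Foxp3 passed without tumor 3 of mouse 41 (0.25, adjusted p = 0.046). From spot medians Cd79a had -0.44 and Cd79b -0.73. The defining markers Ms4a1, Ncr1, Flt3, Xcr1 and Cd209a were too dim to be tested, as were Elane, Camp and Ngp of neutrophils.

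Ccl28 and Ccl20 stand beside the epithelial lists. Of 9 colon epithelium genes 5 fell and 2 rose, with sums of 55259 to 95136 in tumors and 94352 to 97775 in normals. Cdx2, the intestinal transcription factor, fell 8.26-fold and Krt20, a keratin of mature colonocytes, 2.81-fold, whereas the stem cell receptor Lgr5 rose 4.58-fold. Of 3 genes of M cells and follicle epithelium, where Ccl20 and Ccl9 are also made, Tnfaip2 rose 2.00-fold, Tnfrsf11a fell 2.44-fold and Gp2 had -1.05 (adjusted p = 0.271), with sums of 587 to 856 in tumors and 718 to 2861 in normals. The Gp2 value and the highest sum rest on the normal of mouse 43, which had 11.18 for Gp2, against 6.60 in the normal of mouse 41 and 6.97 in that of mouse 42. Without mouse 43 Gp2 had 0.15 (adjusted p = 0.751). Tnfaip2 did not pass from spot medians (0.83, adjusted p = 0.0739). Of 6 smooth muscle genes 4 fell, among them Tagln (1.70-fold), Des (1.97-fold) and Myh11 (1.63-fold), with sums of 2070 to 5232 in tumors and 2936 to 7423 in normals. Only 1 smooth muscle gene passed from spot medians, where Myh11 had -0.04 and Des -0.82 (adjusted p = 0.0973), and only 1 in the authors' deposited table. Colon epithelium calls were 3 lower and 1 higher from spot medians, and 4 lower and 1 higher in the deposited table, with Cdx2 at -2.15 and -2.72. Of 9 squamous genes 2 fell, Krt1 by 1.74-fold and Krt10 by 1.31-fold, and Krt13 had -1.66 (adjusted p = 0.223). Without the normal of mouse 42 Krt1 had -0.58 (adjusted p = 0.0806) and Krt10 -0.19 (adjusted p = 0.203), without either sample of mouse 43 Krt13 passed (-3.14, adjusted p = 0.0127), and calls were lost when the mouse 41 normal was left out for Des (-0.68, adjusted p = 0.0879) and Myh11 (-0.56, adjusted p = 0.071). The part of these cell types in the differences of Ccl28, Ccl6 and Ccl20 was not tested.

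In a fit without a mouse block that left out both arrays high in squamous genes, Ccl2 had a difference of 2.00, Ccl7 1.32, Ccl3 1.73, Ccl4 1.20, Ccl6 -1.18 and Ccl28 -1.91, and these 6 passed (adjusted p from 0.0008 to 0.0060). Ccl8 had 0.41 and did not pass (adjusted p = 0.223). With the block, where mouse 41 alone carries the comparison, Ccl6 had -0.80 and did not pass (adjusted p = 0.0605).

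When the scan session was added as a block, Ccl2 had a difference of 1.98, Ccl7 1.54, Ccl4 0.86, Ccl6 -1.08 and Ccl28 -1.88, and these and Ccl3 passed (adjusted p from 0.0009 to 0.0093). Ccl8 had 0.29 (adjusted p = 0.224). Against their own normals, tumors of the later session differed by 1.73 on average for Ccl2 and by -2.17 for Ccl28, and those of the earlier session by 2.00 and -1.82. When the tumors of a mouse were averaged into one value per animal, all 7 members that were called passed again (adjusted p from 0.0034 to 0.0369).

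**Figure D4:**
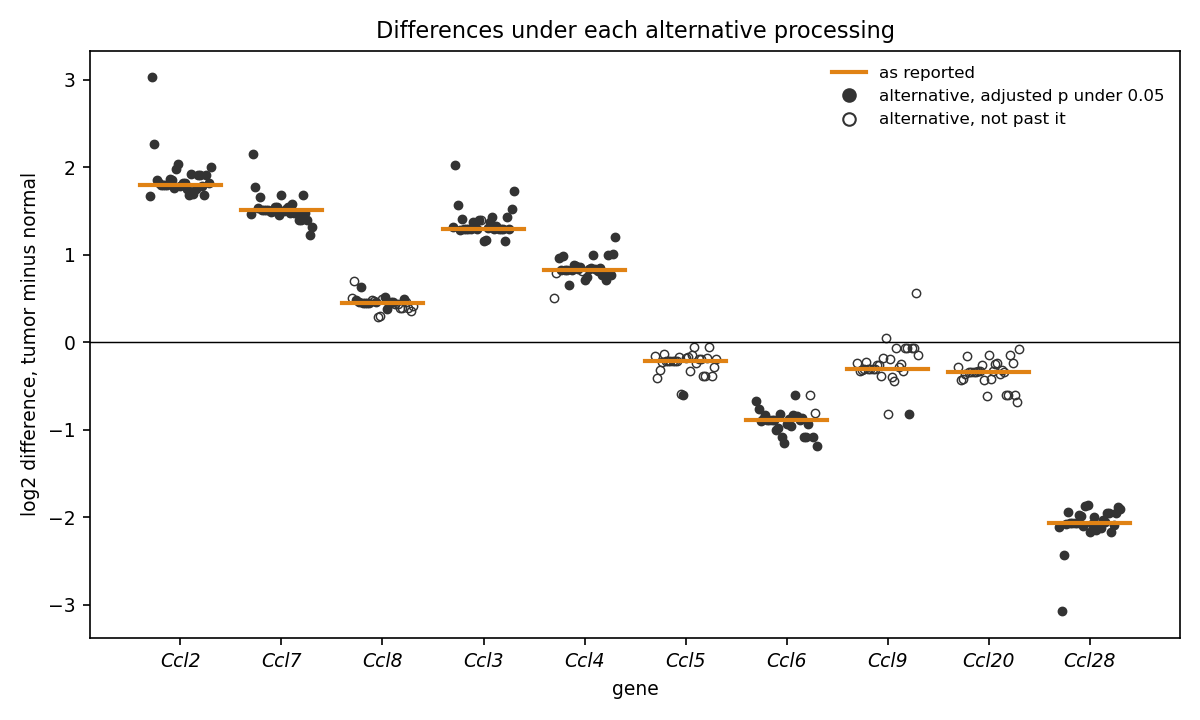
Log2 difference of tumor minus normal for each CC chemokine under 29 alternative ways of processing or fitting the data, with the reported value as an orange bar. Leaving out the normal, the tumor or the whole of mouse 43 gives the same fit and is counted each time. Filled points passed an adjusted p under 0.05 and open points did not. Ccl2, Ccl7 and Ccl28 passed under all 29 alternatives, and Ccl8 under 13.

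Among the 11741 tested genes with a symbol, those that followed the members with the largest differences most closely over the 10 arrays were found by the root mean square distance between log2 profiles, each centred on its own mean. For Ccl2 they were Ppic (distance 0.26), Bmp5 (0.27), Pdgfra (0.28), Cbx6 (0.28) and Thbd (0.29), with log2 differences from 1.36 for Bmp5 to 1.90 for Ppic. For Ccl28 they were Sult1b1 (0.17), Cryl1 (0.18), Tmem117 (0.18), Ahcyl2 (0.20) and Eif4ebp3 (0.20), with log2 differences from -1.84 for Sult1b1 to -2.18 for Eif4ebp3. The points share arrays, animals and normalization, and likeness here describes level patterns over these arrays.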

How the data were processed

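Total RNA was amplified, biotin-labelled and stained with Alexa-647, per the labels. Spots were read at 635 nm on a GenePix 4000B scanner with GenePix Pro 4.1.1.4, per the file headers, and the deposited scanner values are linear intensity, not normalized. The authors' deposited table gives an intensity for 19327 probes, which equals spot median less local background scaled by a single number for the array (to 0.1% in 99.953% or more of the probes with a ratio); its column medians run from 110.2 to 118.9, and the sources used here do not state how its probes were picked.

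Of 38880 spots, all entered the normexp background correction (offset 50, foreground mean, median of the local background), and 34312 gene probes were then quantile normalized on the log2 scale, with 43 marked bad set aside. Accessions matched 1 symbol for 22987 probes through RefSeq (GRCm38.p6), 5232 kept their accession and 6093 without one were left out. Above background means found by the scanner software and brighter than the 99th percentile of 432 null spots. A gene needed this on 3 or more arrays and was read from its brightest probe. Tumor and normal were compared with limma 3.58.1 (R 4.3.3) on all genes, with the mouse as a fixed block. The pairing comes from the animals named in the labels. Deviations of same-mouse samples from their group means correlated at 0.11, -0.067 and -0.078 in mice 41, 42 and 43. Nothing says that tumors of a mouse are independent. With the mouse as a block, p-values measure the spread among tumors of a mouse and of the effect between mice. Each mouse has 1 normal, so the spread among normals of a mouse is not measured. The number of arrays limits the precision (median SE over all genes 0.11). The fit was run on simulated data with independent noise on each array and few genes changed. That simulation cannot show how likeness among tumors of a mouse affects the calls. Text and tables used Python 3.11.15, pandas 2.3.3 and matplotlib 3.10.9.

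The members, gene lists and tests were chosen with earlier results of these data known. Named are all members, all tested further CC ligands and receptors, up to 3 genes of lowest p per cell list, and the 5 genes most like the called member with the largest difference in each direction. Some genes that this rule takes or that the lists hold are counted but not named or shown here. The comparison of effects between mice was added after seeing the data. Alternatives covered the spot summary, background, scaling, filter, probe choice, mouse block, scan session, the deposited table and left-out arrays or mice.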

Additional observations from a re-analysis of the deposited data

Results flagged for a closer look

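Of 66 groups of tumor values examined, 12 held a sample far from the others, where chance gives about 1 in 20. Among the members this was Ccl7, for which tumor 1 of mouse 42 had 8.16, below the next tumor at 8.68.

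Tumor 2 of mouse 41 stood high for Ccl17 (10.02, next 8.54), Ccl19 (6.51, next 6.18) and Ccr7 (7.88, next 7.15). Tumor 3 of that mouse stood high for Ackr1 (9.32, next 8.71) and for Cdx2 (11.76, next 9.64). The tumor of mouse 43 stood high for Ccl24 (7.61, next 6.87), Ackr2 (7.45, next 6.96) and Krt13 (11.41, next 7.43, an array high in squamous genes) and low for Pdgfra (10.97, next 11.67). Tumor 1 of mouse 42 stood high for Ccr10 (6.61, next 6.26) and Gp2 (8.14, next 7.15). Without any 1 of these tumors the direction of the member differences that passed was kept.

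For Ccl21a all tumors of mouse 42 lay above their normal and all tumors of mouse 41 below theirs, with mean differences of 0.42 and -0.50. The difference between these effects was 0.92 (limma adjusted p = 0.650, unadjusted p = 0.0318). Ccl21b, a near-identical copy, had 0.25 and -0.47, a difference of 0.72 (adjusted p = 0.731).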

How the results depend on the processing

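Across 29 alternatives Ccl2 (1.67 to 3.02), Ccl7 (1.23 to 2.15) and Ccl28 (-3.07 to -1.86) kept their direction and passed throughout. These alternatives are not all distinct, since leaving out the normal, the tumor or the whole of mouse 43 gives the same blocked fit. Ccl3 (1.15 to 2.02) lost its call within the earlier scan session, Ccl4 (0.51 to 1.20) in 3 alternatives, Ccl6 (-1.18 to -0.60) in 2 and Ccl8 (0.29 to 0.70) in 16; the causes were not tested. The authors' deposited table, with intensities under 10 set to 10, gave 3.02 for Ccl2, 2.02 for Ccl3, 2.15 for Ccl7 and, not passing, 0.79 for Ccl4 and 0.70 for Ccl8.

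The members called higher were 3 from spot medians, 3 in the deposited table and 2 within the earlier session, and those called lower were 1 without mouse 42 and 1 without the 2 arrays high in squamous genes. Over all genes, higher and lower calls were 1354 and 1386 from spot medians, 1573 and 1395 in the deposited table, 1634 and 1589 within the earlier session, 2053 and 1937 without mouse 42, and 1234 and 1276 without the squamous arrays, where mouse 41 alone carries the blocked fit. Without these arrays and with no block, they were 3020 and 2844, with 4 and 2 members, 4 and 1 other ligands and 4 and 1 receptors. Median scaling moved the share of calls that were higher to 61.1%, against 52.2%.

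Other CC ligands called higher and lower were 0 and 0 from spot medians, 2 and 0 in the deposited table, 3 and 0 with tumors averaged, 2 and 2 with the session block and 3 and 0 within the earlier session. Higher calls were 1 without mouse 42 and 1 without the squamous arrays in the blocked fit, and lower calls were 0 without mouse 41, without mouse 43 and with genes above background on all arrays. CC receptors called higher were 2 from spot medians, 3 in the deposited table, 3 above background on all arrays, 2 with the session block, 2 within the earlier session, 2 without mouse 42 and 2 without the squamous arrays in the blocked fit.

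Leaving out 1 array at a time gave 2575 to 3883 higher and 2412 to 3478 lower genes, 4 to 5 members higher and 2 lower, 1 to 5 ligands higher and 0 to 2 lower, and 3 to 5 receptors higher and 1 lower. The lowest counts of ligands and receptors called higher came without the normal of mouse 42. With no replicate block for the mouse the counts were 3670 and 3422 for all genes, 4 and 2 for members, 4 and 1 for ligands and 4 and 1 for receptors. As a random block it gave 4 and 2 members. Myh11 turned from lower to a difference of 0.0106 in the deposited table.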
